A study of Mus musculus with 2 samples.

Results

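The genes of the mitochondrial respiratory chain were examined in postischemic mouse kidney, in every cell class that marker genes could define. A gene was taken as a member when its symbol named a structural subunit of complexes I to V, and pseudogenes were left out. The rule took symbols that start with mt-Nd, mt-Co, mt-Cytb, mt-Atp, Nduf (without Ndufaf), Uqcr, Cox4i, Cox5, Cox6, Cox7, Cox8 or Atp5, together with Sdha, Sdhb, Sdhc and Sdhd. It found 98 of the 32285 genes counted, of which 13 are encoded by mitochondrial DNA (mtDNA) and 85 by the nucleus. Complex I held 36 nuclear and 7 mtDNA members, complex II 4 and 0, complex III 8 and 1, complex IV 20 and 3, and complex V 17 and 2. Ndufa4 and Ndufa4l2 were placed in complex IV, where the protein sits despite its name.

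Single-cell transcripts came from 2 kidneys of male C57BL/6 mice, 9 weeks old, after bilateral renal ischemia-reperfusion. The control mouse received saline and the other 100 mg/kg JPI-289, an inhibitor of poly(ADP-ribose) polymerase, into the peritoneum immediately before reperfusion. Kidneys were taken 24 h after surgery. Each group was 1 library from 1 mouse, so no difference between the groups was tested, the drug, the animal and the library cannot be told apart, and each interval below covers counting error only.

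The respiratory chain passes electrons from NADH (complex I) and succinate (complex II) through complex III and cytochrome c to complex IV, which reduces oxygen, and complex V (ATP synthase) makes ATP from the proton gradient that results. All complexes except complex II combine subunits from both genomes. The proximal tubule depends on oxidative phosphorylation for its transport work, and intercalated cells are likewise dense in mitochondria, which is why these genes are often followed in ischemic kidney injury.

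The c subunit, from which the proton-driven ring of ATP synthase is built, is encoded by 3 nuclear genes, Atp5g1, Atp5g2 and Atp5g3. Their mature proteins are the same, so the genes differ in their targeting peptides and in their regulation. The promoters are therefore shown, because the 3 genes gave different ratios between the groups in proximal tubule cells (values below). Each is the RefSeq window from 250 bases before to 50 after the gene's start, build GRCm38.p6, written 5′ to 3′ on the minus strand that carries the gene. Atp5g1 lies at chr11:96075582-96075881, Atp5g2 at chr15:102670998-102671297 and Atp5g3 at chr2:73911277-73911576. The GENCODE annotation, source of the gene coordinates below, places Atp5g2 at chr15:102662864-102672352. By that annotation the Atp5g2 window lies inside the gene and not at its start. Capitals mark motif letters found on either strand: ACGTG (the core of a hypoxia response element, in all 3), GCATGCGC (the core of a site for the factor NRF1, in Atp5g2) and AAGGTCA (a half-site for estrogen-related receptors, in Atp5g3, where it reads on the other strand).
Atp5g1: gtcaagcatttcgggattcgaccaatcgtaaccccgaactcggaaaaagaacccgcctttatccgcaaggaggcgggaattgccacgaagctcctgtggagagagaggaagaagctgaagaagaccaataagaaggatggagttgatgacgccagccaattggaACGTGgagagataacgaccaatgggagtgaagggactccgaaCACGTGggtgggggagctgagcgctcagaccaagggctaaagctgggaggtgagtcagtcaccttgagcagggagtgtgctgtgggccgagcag
Atp5g2: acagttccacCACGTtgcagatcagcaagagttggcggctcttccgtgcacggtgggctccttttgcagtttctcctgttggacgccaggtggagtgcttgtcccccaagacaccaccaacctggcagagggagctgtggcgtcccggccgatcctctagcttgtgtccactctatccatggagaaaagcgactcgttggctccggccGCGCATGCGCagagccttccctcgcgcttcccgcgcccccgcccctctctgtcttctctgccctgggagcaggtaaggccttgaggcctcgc
Atp5g3: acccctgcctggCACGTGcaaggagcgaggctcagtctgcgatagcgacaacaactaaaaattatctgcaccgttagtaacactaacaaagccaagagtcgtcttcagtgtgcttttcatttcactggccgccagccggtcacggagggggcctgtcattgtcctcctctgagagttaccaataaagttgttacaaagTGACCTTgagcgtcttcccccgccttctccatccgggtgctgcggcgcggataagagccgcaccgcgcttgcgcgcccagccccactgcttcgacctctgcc
In Atp5g1 the hypoxia letters stood at -86 and, as a palindrome read on both strands, at -43. In Atp5g2 they stood at -240, and in Atp5g3, again as a palindrome read on both strands, at -237. The NRF1 letters of Atp5g2 began at -40 on the printed strand and at -42 for the other strand. The receptor half-site of Atp5g3 began at -52. Of the 27025 genes with such a window, 21.8% held ACGTG, so its presence sets these promoters little apart.

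After cell calling and a filter on cells with over 50% mtDNA transcripts, 3746 control and 5050 JPI-289 cells remained, with a median of 2062 and 1865 UMIs (unique molecular identifiers, each 1 counted transcript molecule). The members took 7795182 of 38328760 UMIs in the control and 6424064 of 35548396 with JPI-289, all barcodes included. In all, 23 cell barcodes occurred in both libraries, and leaving them out changed no direction reported for PT-like or EC-like cells. Clusters were made without the members and named from marker genes. The proximal tubule-like (PT-like) class had 1761 control and 1653 JPI-289 cells, and the endothelial-like (EC-like) class 507 and 574. Smaller classes were thick ascending limb (TAL-like, 155 and 245), distal convoluted and connecting tubule (DCT-CNT-like, 386 and 457), collecting duct principal cells (CD-PC-like, 83 and 383), intercalated cells (CD-IC-like, 45 and 60), stroma-like cells (156 and 101), macrophage-like cells (199 and 303) and neutrophil-like cells (196 and 652). Podocyte-, lymphocyte-, red blood cell-, platelet- and urothelium-like cells held under 20 cells in 1 library or few UMIs and are left aside, as are 134 and 325 unnamed cells.

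Each PT-like cluster came mostly from 1 library. Clusters 0, 5 and 14 held 1712 control cells, and clusters 1, 7 and 9 held 1640 JPI-289 cells, so a PT-like cluster may be the library and not a subtype, and the PT-like cells were compared as 1 class. The markers of injured proximal tubule went from 272 to 1668 UMIs per 1000000 UMIs between the groups, and 11 of the 14 PT markers were lower. The rise in injury markers was not particular to this class. They went from 260 to 977 in TAL-like cells and from 802 to 2291 in cluster 3 of the EC-like cells. In cluster 15 of the macrophage-like cells they went from 620 to 571, and in the unnamed cluster 11 from 834 to 613. Of the EC-like cells, cluster 3 held 301 and 357 cells, cluster 13 205 and 35, and cluster 18 1 and 182. PT-like cluster 1, with 887 JPI-289 cells, was led by injury markers and had a PT score of 0.56. Its JPI-289 cells had 2469 PT marker CPM (per 1000000 UMIs), beside 3444 in cluster 7 and 24330 in cluster 9. JPI-289 cells of EC-like cluster 3 had 1596 and those of DCT-CNT-like cluster 4 had 1752. Control cells of these clusters had 2172 and 2747, and the 37 control cells of cluster 1 had 6000. Within each library PT markers were thus higher in cluster 1, but its JPI-289 value lay between the control values of those clusters. The name of cluster 1 is therefore less certain. The parts of injury state and of clusters in the values below were not tested.

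The summed nuclear members were highest in the tubule classes and lowest in leukocytes. In the control, CD-IC-like cells had 57954 nuclear member CPM (UMIs per 1000000 UMIs of the class), PT-like cells 49617, DCT-CNT-like cells 44059, CD-PC-like cells 40327 and TAL-like cells 40168. The last pair had overlapping counting intervals. Stroma-like cells followed with 24932, EC-like cells with 23168, macrophage-like cells with 18377 and neutrophil-like cells with 12102. In the JPI-289 library PT-like cells (42873) and CD-IC-like cells (42674) were highest with overlapping intervals. EC-like (20986), stroma-like (20934) and macrophage-like cells (20777) overlapped there too. Counted member by member, CD-IC-like cells had the highest control level for 58 of the 77 nuclear members measured in all 9 classes and PT-like cells for 17. In the JPI-289 library the PT-like cells led for 39 and the CD-IC-like cells for 26. A gene counts as measured with at least 20 UMIs over both libraries.

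**Figure D1:**
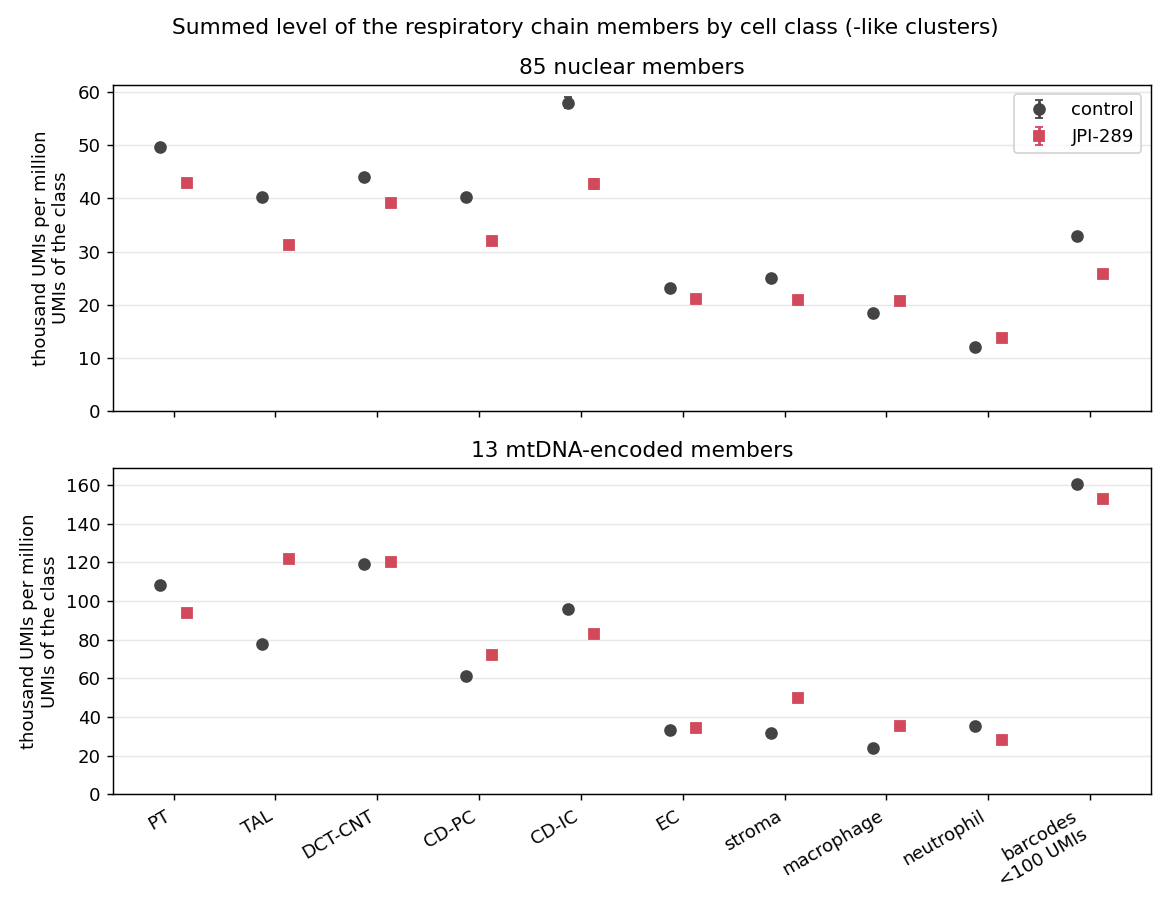
Summed level (UMIs per 1000000) of the nuclear and of the mtDNA-encoded members in 9 cell classes and in barcodes under 100 UMIs, for the control and the JPI-289 library, 1 library each. Bars on the points are exact Poisson intervals of counting error. The nuclear sum is lower in the JPI-289 library in all 7 tubule, endothelial and stromal classes and higher in macrophage- and neutrophil-like cells, and the mtDNA sums go in both directions.

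The nuclear sum was lower in the JPI-289 library in all 7 nonleukocyte classes. On the log2 scale, the JPI-289 level over that of the control was -0.44 in CD-IC-like, -0.36 in TAL-like, -0.33 in CD-PC-like, -0.25 in stroma-like, -0.21 in PT-like, -0.17 in DCT-CNT-like and -0.14 in EC-like cells. It was 0.18 in macrophage-like and 0.19 in neutrophil-like cells. With an estimated free-RNA share of 18.8% and 17.2% subtracted, the sums of neutrophil-like cells were 7204 and 11148 CPM, and those of macrophage-like cells 16924 and 20271. Barcodes under 100 UMIs, which hold free RNA and no cell, went from 32878 to 25747 CPM (-0.35). The marker content of some classes differed as well. In TAL-like cells DCT-CNT markers went from 8778 to 803 CPM and in CD-IC-like cells from 12442 to 1958. CD-PC-like cells had a median of 8685 UMIs in the control and 1543 with JPI-289. The part of marker content and depth in these ratios was not tested.

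The mtDNA-encoded members behaved otherwise. Their sum went from 108378 to 93877 CPM in PT-like cells (log2 -0.21) and was close to level in DCT-CNT-like (118984 to 120144, 0.01) and EC-like cells (33234 to 34162, 0.04). It was higher in TAL-like cells, from 77996 to 121688 (0.64), in stroma-like cells, from 32016 to 49850 (0.64), in macrophage-like cells, from 24064 to 35150 (0.55), and in CD-PC-like cells, from 61405 to 72341 (0.24). In neutrophil-like cells it was lower, from 35351 to 28050 (-0.33), and in CD-IC-like cells from 96104 to 83131 (-0.21). With estimated free RNA subtracted, the mtDNA sums of neutrophil-like cells were 7120 and 4752 CPM, with 3 and 6 of the 13 genes at 0. Most of their mtDNA UMIs were thus estimated as free RNA. The filter at 50% counts exactly these 13 genes, and so caps their level. Without the filter the log2 ratio was -0.33 in PT-like, 0.79 in TAL-like, 0.13 in stroma-like, 0.67 in macrophage-like, 0.02 in CD-PC-like, -0.01 in DCT-CNT-like and -0.51 in neutrophil-like cells. Of the TAL-like cells, 9.03% in the control and 21.6% with JPI-289 had over 20% mtDNA transcripts. With each cell weighted equally the PT-like ratio was 0.08, the CD-PC-like -0.42, the EC-like -0.10 and the CD-IC-like 0.01, so the direction in those 4 classes turned with the weighting of cells.

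Transcripts of the mitochondrial genome per nuclear member transcript put the genomes side by side. PT-like cells had 2.18 in the control and 2.19 with JPI-289. TAL-like cells had 1.94 and 3.90, stroma-like cells 1.28 and 2.38, CD-PC-like cells 1.52 and 2.26, macrophage-like cells 1.31 and 1.69, DCT-CNT-like cells 2.70 and 3.07, CD-IC-like cells 1.66 and 1.95, and EC-like cells 1.43 and 1.63. In neutrophil-like cells it was lower, 2.92 and 2.04, though most of their mtDNA UMIs were estimated as free RNA. The log2 ratio of these values in PT-like cells, 0.00, was -0.18 without the mtDNA filter, 0.27 with each cell weighted equally and 0.55 in clusters 1, 7 and 9 alone, which held 49 control cells. In stroma-like cells it was 0.89, and 0.35 without the filter, and in CD-PC-like cells it was -0.05 with each cell weighted equally. Within the PT-like class the ratio differed by complex: 1.88 and 2.14 for complex I, 2.89 and 3.39 for complex III, 3.95 and 3.15 for complex IV, and 1.00 in both libraries for complex V.

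PT-like cells carried the most UMIs and are described gene by gene. Of the 85 nuclear members 79 were measured, 69 of them were lower in the JPI-289 library, and the median log2 ratio was -0.29, beside -0.19 over all 11299 genes measured in these cells. A log2 ratio of -0.5 or lower was seen for 25 members, 31.6% of those measured, against 38.1% of all genes, and a ratio of 0.5 or higher for 0 members against 22% of all genes. The members were thus mostly a little lower, and fewer of them than of all genes differed by that much. The shares of all genes, here and below, were not matched to the members by UMI count. Genes with few UMIs pass 0.5 more easily by counting error. Without cluster 14, a control-only cluster of 212 cells with the noncoding RNA Gm26917 among its leading genes and 7872 nuclear member CPM, the member median was -0.40. The unnamed cluster 11, also with Gm26917 among its leading genes and with a PT score of 1.29, lay outside the class. It held 37 control and 258 JPI-289 cells, with 10219 and 5356 nuclear member CPM. By complex the medians of the whole PT-like class ran from -0.57 in complex II and -0.43 in complex I, through -0.29 in complex V and -0.20 in complex III, to -0.03 in complex IV.

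**Figure D2:**
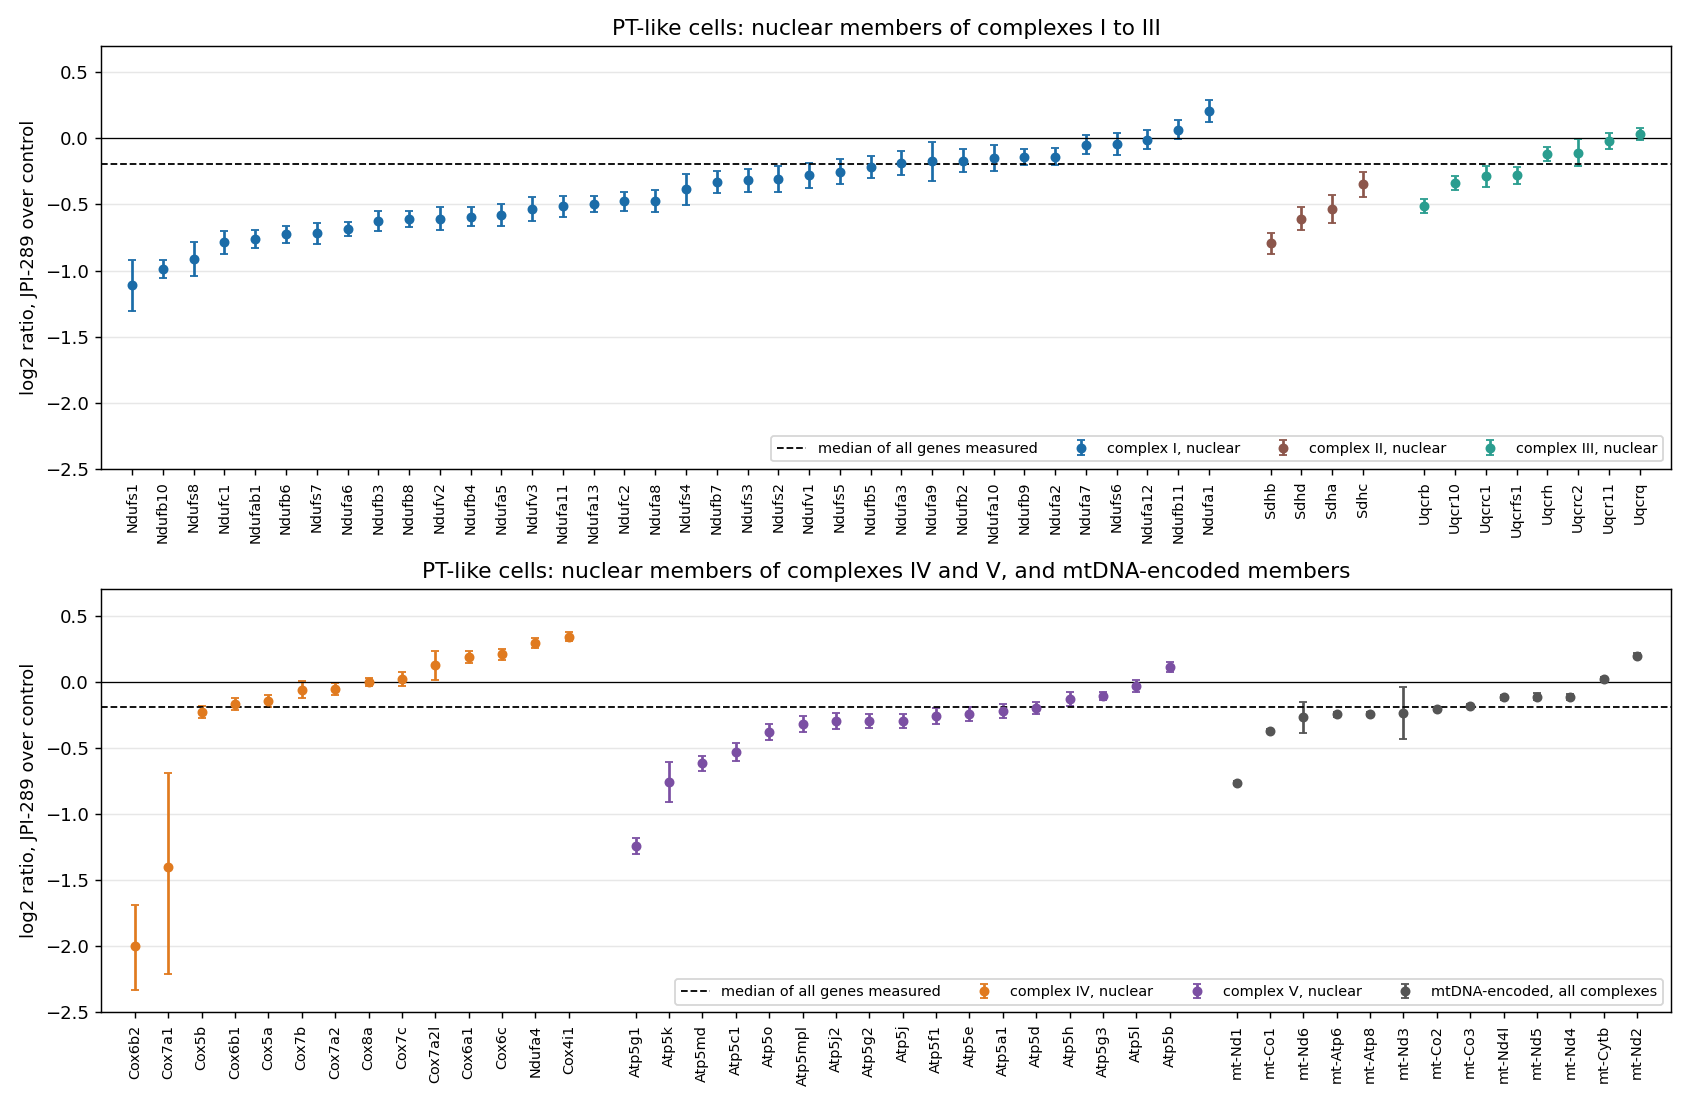
Log2 ratio of JPI-289 over control for each measured member in PT-like cells, by complex, with nuclear and mtDNA-encoded members marked apart and exact binomial intervals of counting error. Complexes I and II lie mostly below 0, complex IV is spread around 0, and Cox6b2 and Atp5g1 lie lowest among members with at least 100 UMIs.

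Complex I, the NADH dehydrogenase, had 34 of its 36 nuclear members lower in the JPI-289 library, 15 of them by at least 0.5. Of all genes measured in PT-like cells, 38.1% were lower by that much. Ndufs1, the largest iron-sulfur subunit (GRCm38 chr1:63143596-63176833), had 732 UMIs in the control and 308 with JPI-289 (log2 -1.11, interval -1.31 to -0.92). Ndufb10, an accessory subunit of the membrane arm (chr17:24722060-24724478), had 5341 and 2448 (-0.99). The iron-sulfur subunits Ndufs8 (1501 and 724, -0.91) and Ndufs7 (3479 and 1922, -0.72), and Ndufab1, which is also the mitochondrial acyl carrier protein (5109 and 2735, -0.76), were lower to a similar degree. The pair with most UMIs, Ndufa6 and Ndufa13, went from 929 to 579 and from 755 to 535 CPM (-0.68 and -0.50). Ndufa1 (301 and 347 CPM, 0.21) and Ndufb11 (402 and 421, 0.07) were the exceptions to the direction. Ndufa12 (-0.01), Ndufs6 (-0.04) and Ndufa7 (-0.05) were near 0, so the complex did not move as a block.

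Complex II, succinate dehydrogenase, links the chain to the tricarboxylic acid cycle and is the only complex coded wholly by the nucleus. All 4 subunits were lower in the JPI-289 library. The iron-sulfur subunit Sdhb had 461 CPM in the control and 265 with JPI-289 (log2 -0.79, interval -0.87 to -0.72). The membrane anchor Sdhd had 366 and 240 (-0.61) and the other anchor Sdhc 263 and 206 (-0.35). The catalytic flavoprotein Sdha had 228 and 157 (-0.53). Summed over its subunits, complex II had the lowest ratio of the 5 complexes in PT-like cells, -0.60.

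Complex III, which hands electrons to cytochrome c, differed less. Uqcrb was the one member lower by 0.5 or more (893 and 625 CPM, -0.51). The Rieske iron-sulfur protein Uqcrfs1 had 614 and 506 (-0.28), and the core proteins Uqcrc1 and Uqcrc2 had ratios of -0.29 and -0.11. The small subunit Uqcrq had 873 and 893 CPM (0.03), the single ratio above 0, while Uqcr10 had 946 and 749 (-0.34). The electron carriers on either side of this step were lower than most of the complex: Cyc1, the heme subunit of complex III that the symbol rule does not take, went from 4558 to 2778 UMIs (-0.58), and somatic cytochrome c, Cycs, from 2038 to 1194 (-0.63).

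Complex IV, cytochrome c oxidase, was the complex whose nuclear sum was not lower in PT-like cells (log2 0.07). Of its 14 measured nuclear members 8 were lower. Cox4i1, the common form of the regulatory subunit 4 (chr8:120668222-120674207), had 1663 CPM in the control and 2109 with JPI-289 (0.34, interval 0.31 to 0.38), the highest ratio of any nuclear member with at least 100 UMIs. Ndufa4 (1390 and 1703, 0.29), Cox6c (1278 and 1475, 0.21) and Cox6a1 (878 and 1002, 0.19) followed. Cox8a, the member with most UMIs in the complex, was level at 1923 in both. On the other side stood Cox6b2, the form of subunit 6b known from testis (chr7:4751792-4753094), with 446 UMIs in the control and 101 with JPI-289 (-2.00, interval -2.33 to -1.69). Cox7a1, the heart and muscle form of subunit 7a, was scarce, with 62 and 21 UMIs (-1.40). Cox4i2, Cox6a2 and Ndufa4l2 had too few UMIs to be measured in PT-like cells (1 and 2, 4 and 6, 3 and 1), and Cox7b2, Cox8b and Cox8c had none.

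Complex V, the ATP synthase, had 16 of 17 nuclear members lower, 4 of them by at least 0.5, where 38.1% of all genes were lower by that much. Atp5g1, whose promoter is printed above (gene at chr11:96068852-96075670), had 7890 UMIs in the control and 3034 with JPI-289, or 975 and 413 CPM (log2 -1.24, interval -1.30 to -1.18). Its sister genes moved far less, Atp5g2 from 789 to 643 CPM (-0.30) and Atp5g3, the nuclear member with most UMIs, from 2935 to 2724 (-0.11). Atp5k, the e subunit at the dimer interface, had 123 and 72.5 (-0.76), Atp5md 819 and 534 (-0.62), and the gamma subunit Atp5c1, the central stalk, 605 and 419 (-0.53). The catalytic beta subunit Atp5b was the exception, with 1336 and 1445 CPM (0.11).

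The mtDNA-encoded members in PT-like cells did not share 1 ratio although both strands of the genome are transcribed as long precursors. mt-Nd1, a membrane core subunit of complex I (mitochondrial genome 2751 to 3707), went from 9107 to 5354 CPM (log2 -0.77). mt-Nd2, the next protein gene (3914 to 4951), went from 4738 to 5433 (0.20). mt-Co1, the catalytic subunit of complex IV (5328 to 6872), went from 18035 to 13959 (-0.37), and mt-Cytb, the single mtDNA subunit of complex III (14145 to 15288), from 14940 to 15188 (0.02). The others lay between: mt-Co2 -0.21, mt-Co3 -0.18, mt-Atp8 and mt-Atp6 both -0.25, mt-Nd3 -0.23, mt-Nd4l -0.12, mt-Nd4 and mt-Nd5 both -0.11, and mt-Nd6 -0.27. Neighbours overlap in sequence, mt-Atp8 with mt-Atp6 over 43 bases, mt-Nd5 with mt-Nd6 over 14, mt-Nd4l with mt-Nd4 over 7 and mt-Atp6 with mt-Co3 over 1,. mt-Nd6 lies on the strand opposite mt-Nd5, and the other pairs are read from shared transcripts, so the split of UMIs within those pairs is uncertain.

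The ratio of mt-Nd1 to mt-Nd2 UMIs in PT-like cells was 1.92 in the control and 0.985 with JPI-289 (log2 -0.96, interval -0.98 to -0.95). The ratio was below 0 on the log2 scale in all 9 classes, and PT-like cells had the lowest value, followed by neutrophil-like (-0.72) and EC-like cells (-0.71). The value nearest 0 was -0.03 in TAL-like cells, whose interval of -0.09 to 0.03 takes in 0. Barcodes under 100 UMIs had 1.21 and 0.841 (-0.52).

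PT-like clusters of both libraries differed in total mtDNA content. Among control clusters, mtDNA transcripts took 3.17% of UMIs in cluster 0 (946 cells, median 1334 UMIs), 5.52% in cluster 14 and 15% in cluster 5 (554 cells, median 6739 UMIs). Among JPI-289 clusters they took 3.47% in cluster 1 (887 cells), 6.32% in cluster 9 (300 cells) and 16.1% in cluster 7 (453 cells). The libraries therefore spanned a like range of mtDNA content. The summed nuclear members were 53955 and 53939 CPM in control clusters 0 and 5. In JPI-289 clusters 1, 7 and 9 they were lower, 41160, 41346 and 46001. Control cluster 14 lay below these, at 7872, and the 37 control cells of cluster 1 had 44698. The ranges of the balances of members given next did not overlap between the libraries. Clusters of 1 library are not replicates, and the share of all genes that separate in this way was not counted. Atp5g1 took 19.9% of c subunit UMIs in cluster 0, 21.2% in cluster 5 and 17.3% in cluster 14, against 11% in cluster 1, 11.6% in cluster 7 and 10.2% in cluster 9. The 37 control cells that clustered with the JPI-289 cells of cluster 1 had 19.3% (interval 13.8% to 25.9%). The parts of library and of cluster in this share were not tested. Complex IV UMIs per complex I UMI, over nuclear members, were 0.684, 0.938 and 0.703 in clusters 0, 5 and 14 and 1.07, 1.38 and 1.14 in clusters 1, 7 and 9, with 0.845 in the 37 control cells. mt-Nd1 per mt-Nd2 was 1.29, 2.04 and 1.36 in the control clusters and 0.772, 0.965 and 1.18 in those of JPI-289. Cox6b2 took 27.9% of subunit 6b UMIs in cluster 14, from 31 UMIs, 6.81% in cluster 0 and 4.51% in cluster 5, and 2.26%, 2.24% and 0.465% in clusters 1, 7 and 9.

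The summed markers of injured proximal tubule had 1485, 937 and 2690 CPM in the JPI-289 cells of clusters 1, 7 and 9, against 209, 297 and 269 in the control cells of clusters 0, 5 and 14 and 535 in the 37 control cells of cluster 1. Injury markers had the highest score of any list in clusters 1 and 7, and came second to PT markers in cluster 9, so their level ran with the library. Split at an injury marker score of 0.75, clusters 1, 7 and 9 formed the high side. Among its cells, 49 control and 1640 JPI-289 cells, the nuclear member median was -0.25, the log2 ratio of Atp5g1 to its sister genes -0.99 and that of complex IV to complex I 0.45. The mtDNA sum was higher there in the JPI-289 library (0.46), the opposite of the whole class, and mt-Nd1 (0.12) turned with it, as did Cyc1 (0.46) and Cycs (0.21). Among cells of the low side, 1712 control and 13 JPI-289 cells, those values were 0.14, -0.11 and 0.18, and Cox6b2 had -0.98. The value of Atp5g1 itself was 0.00045 there, that of Sdhb 0.046 and that of Sdhd 0.37. Comparisons within 1 side of that split thus rested on 49 or 13 cells of 1 library.

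**Figure D3:**
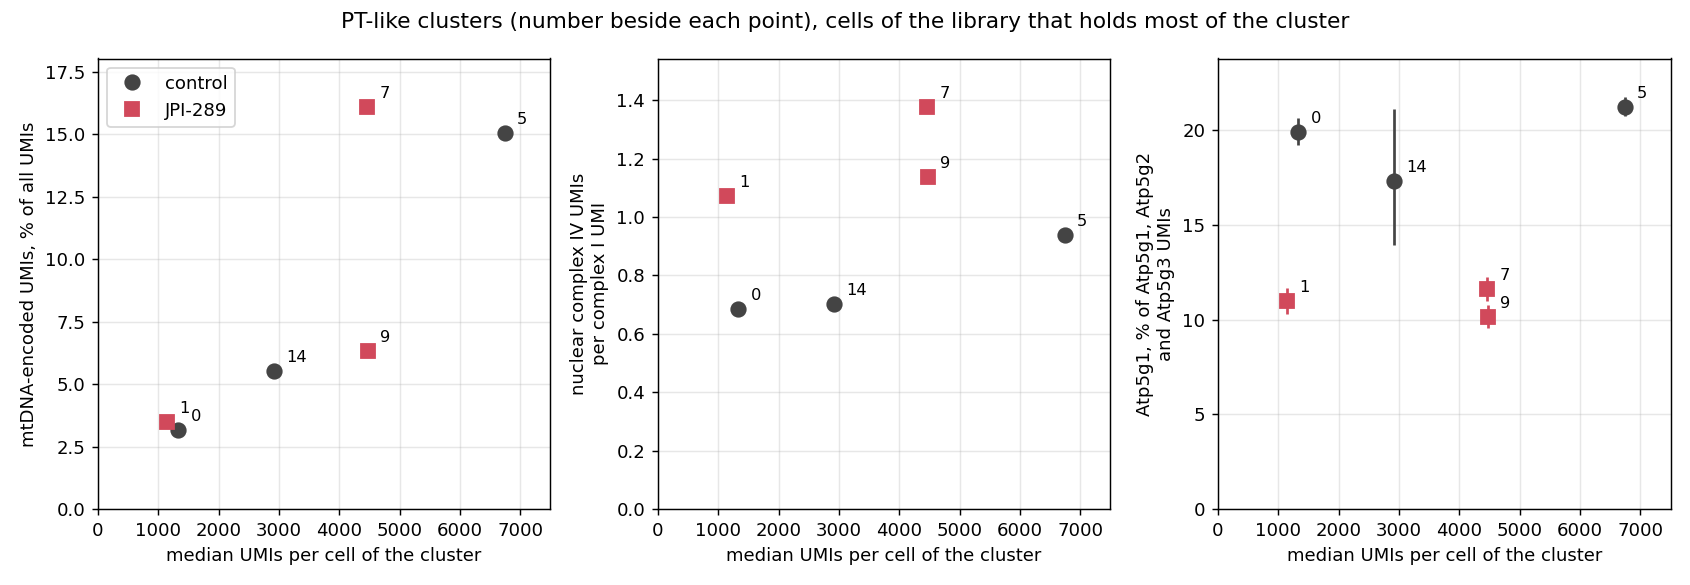
PT-like clusters, each drawn from the library that holds most of its cells (circles control, squares JPI-289, cluster number beside the point), by median UMIs per cell on the x axis. The panels give the mtDNA share of UMIs, nuclear complex IV UMIs per complex I UMI, and the Atp5g1 share of c subunit UMIs with exact binomial intervals. The libraries overlap in mtDNA share, from 3.17% to 16.1%, and separate in the other panels.

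The tilt between complexes I and IV was present in each class. Nuclear complex IV UMIs per nuclear complex I UMI went from 0.858 to 1.21 in PT-like cells (log2 0.50, interval 0.48 to 0.51). The ratio was higher in the JPI-289 library by 0.38 in EC-like, 0.36 in DCT-CNT-like and in neutrophil-like, 0.31 in macrophage-like and in CD-IC-like, 0.29 in stroma-like, 0.27 in TAL-like and 0.17 in CD-PC-like cells. Leaving out Ndufa4 and Cox4i1 left 0.41 in PT-like and 0.12 in CD-PC-like cells, so it did not rest on those 2 genes. In macrophage-like cells the sums of complex I (0.07) and complex IV (0.39) were both higher in the JPI-289 library, and in CD-IC-like cells both were lower (-0.60 and -0.29). Barcodes under 100 UMIs went from 0.838 to 1.15 (0.46). After subtraction of an estimated free-RNA share the ratio was 0.49 in PT-like, 0.36 in EC-like and 0.15 in neutrophil-like cells. The 9 classes come from the same 2 libraries and are not 9 separate observations.

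**Figure D4:**
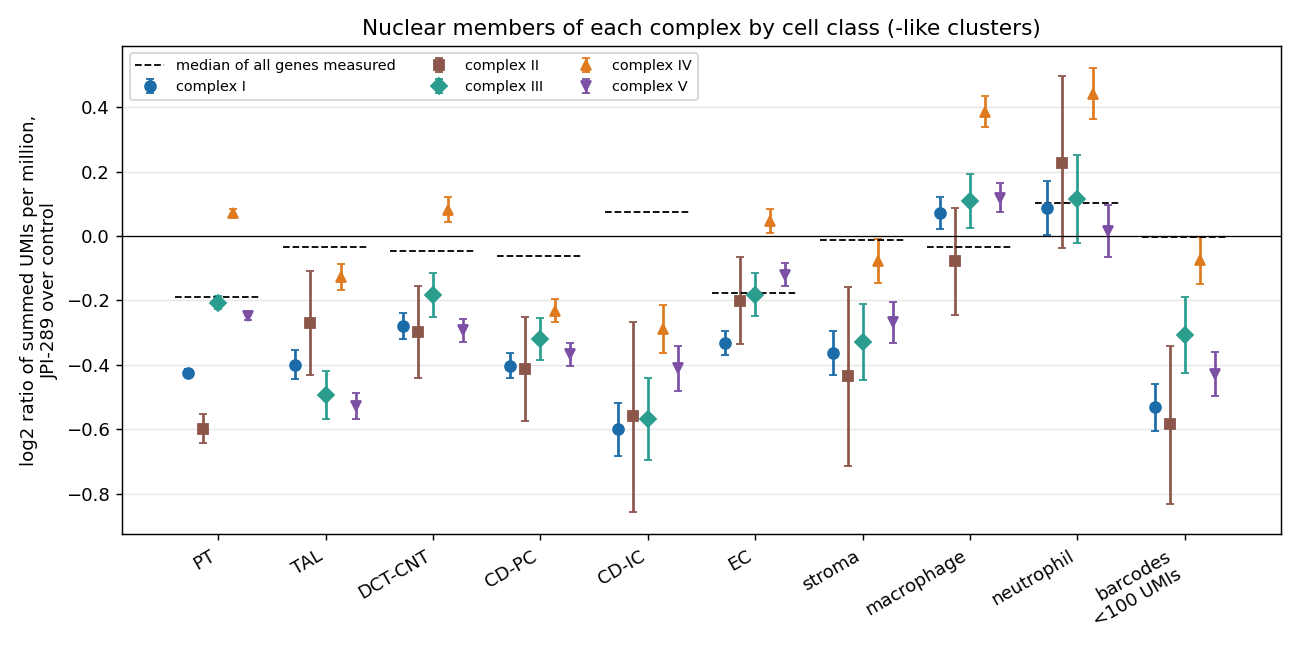
Log2 ratio of JPI-289 over control of the summed nuclear members of each complex, in 9 cell classes and in barcodes under 100 UMIs. In each class the value of complex IV lies above that of complex I, and the values of complexes I and II are below 0 in all 7 tubule, endothelial and stromal classes.

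In the distal nephron classes most nuclear members were lower in the JPI-289 library. In CD-IC-like cells 76 of 77 measured nuclear members were lower (median -0.50, beside 0.07 over all genes). Lower by at least 0.5 were 38, or 49.4% of those measured, against 23% of all genes. In TAL-like cells, which drive salt uptake, 70 of 77 were lower (median -0.44, beside -0.03), and 30 were lower by 0.5, or 39.0% against 26%. In CD-PC-like cells 70 of 78 were lower (median -0.36, beside -0.06), 21 of them by 0.5, or 26.9% against 28.3%. In DCT-CNT-like cells 62 of 77 were lower (median -0.29, beside -0.05), 11 of them by 0.5, or 14.3% against 25.4%. The distal classes thus had member medians further below their all-gene medians than the PT-like cells had, a difference that was not tested.

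In stroma-like cells, which include renin- and actin-expressing mural cells by their leading genes, 69 of 80 members were lower (median -0.32, beside -0.01), 28 of them by 0.5, or 35% against 27.9% of all genes. Macrophage-like cells were the class with most members higher: 31 of 77 were lower (median 0.07, beside -0.04), with 5 lower by 0.5 against 30% of all genes and 8 higher by 0.5 against 24.1%. In neutrophil-like cells 38 of 77 were lower (median 0.01, beside 0.10), with 14 lower by 0.5 against 23.1% of all genes and 12 higher by 0.5 against 29.6%. Red blood cell markers went from 60.2 to 1450 CPM in macrophage-like cells, macrophage markers from 15.1 to 1099 in stroma-like cells, and PT markers from 1425 to 834 in neutrophil-like cells. Their part in these values was not tested.

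In EC-like cells 60 of 78 members were lower (median -0.20, beside -0.18 over all genes), 15 of them by 0.5, or 19.2% against 35.4%, so the members as a group lay where the other genes lay. The lowest were complex I subunits: Ndufc1 (129 and 53.5 CPM, -1.27), Ndufs8 (107 and 48.2, -1.14) and Ndufv3 (163 and 82.5, -0.98). The highest were the Rieske protein Uqcrfs1 (209 and 273, 0.38), the catalytic Atp5b (767 and 922, 0.27) and Ndufa4 (496 and 590, 0.25). Of the mtDNA members mt-Nd1 was lower (2451 and 1909, -0.36) and mt-Nd2 (1565 and 2000, 0.35) and mt-Cytb (4674 and 5519, 0.24) were higher. mt-Nd4l, mt-Nd4 and mt-Nd5 lay between 0.17 and 0.20, mt-Nd3 at 0.36 with an interval of -0.46 to 1.18, and mt-Co1, mt-Co2, mt-Co3, mt-Atp6, mt-Atp8 and mt-Nd6 between -0.14 and 0.03. Free RNA was estimated at 17.2% of EC-like UMIs in the control and 17.8% with JPI-289, and once it was subtracted the mtDNA sums were 8041 and 9358 CPM, with 6 and 3 of the 13 genes at 0.

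Over the 9 classes, 20 of 77 nuclear members (26.0%) were lower in the JPI-289 library in every one, against 8.03% of the 2778 genes measured in all 9 classes. They were 11 of 36 in complex I (Ndufb3, Ndufc1, Ndufs5, Ndufb2, Ndufa3, Ndufab1, Ndufa13, Ndufs7, Ndufb4, Ndufa2 and Ndufs8), Sdha and Sdhc of complex II, Uqcrb of complex III, Cox5a of complex IV, and Atp5k, Atp5d, Atp5g1, Atp5j and Atp5o of complex V. Higher in at least 7 classes were Cox4i1 and Cox7a2l, and of the mtDNA members mt-Nd2, mt-Nd4 and mt-Cytb. Of all genes 36.1% were higher in at least 7 classes. The mtDNA group had 0 of 12 members lower in 7 or more classes and the nuclear group 53 of 77, against 25.8% of all genes.

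Several subunits come in paired forms, and their shares compare transcripts within a class without any scaling. Atp5g1 went from 20.8% to 10.9% of c subunit UMIs in PT-like cells (intervals 20.4% to 21.2% and 10.6% to 11.3%), while Atp5g2 stayed at 16.8% and 17.0% and Atp5g3 went from 62.4% to 72.1%. Its share was lower in the JPI-289 library in each class, among them TAL-like cells (25.4% and 17.3%), CD-IC-like cells (28.4% and 18.5%), DCT-CNT-like cells (25% and 19.9%) and EC-like cells (20.2% and 16.8%). Barcodes under 100 UMIs had 20.8% and 11.5%. With free RNA subtracted, the log2 ratio of Atp5g1 to its 2 sister genes was -1.10 in PT-like and -0.66 in TAL-like cells, but -0.13 in EC-like and 0.56 in neutrophil-like cells, where the direction turned.

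**Figure D5:**
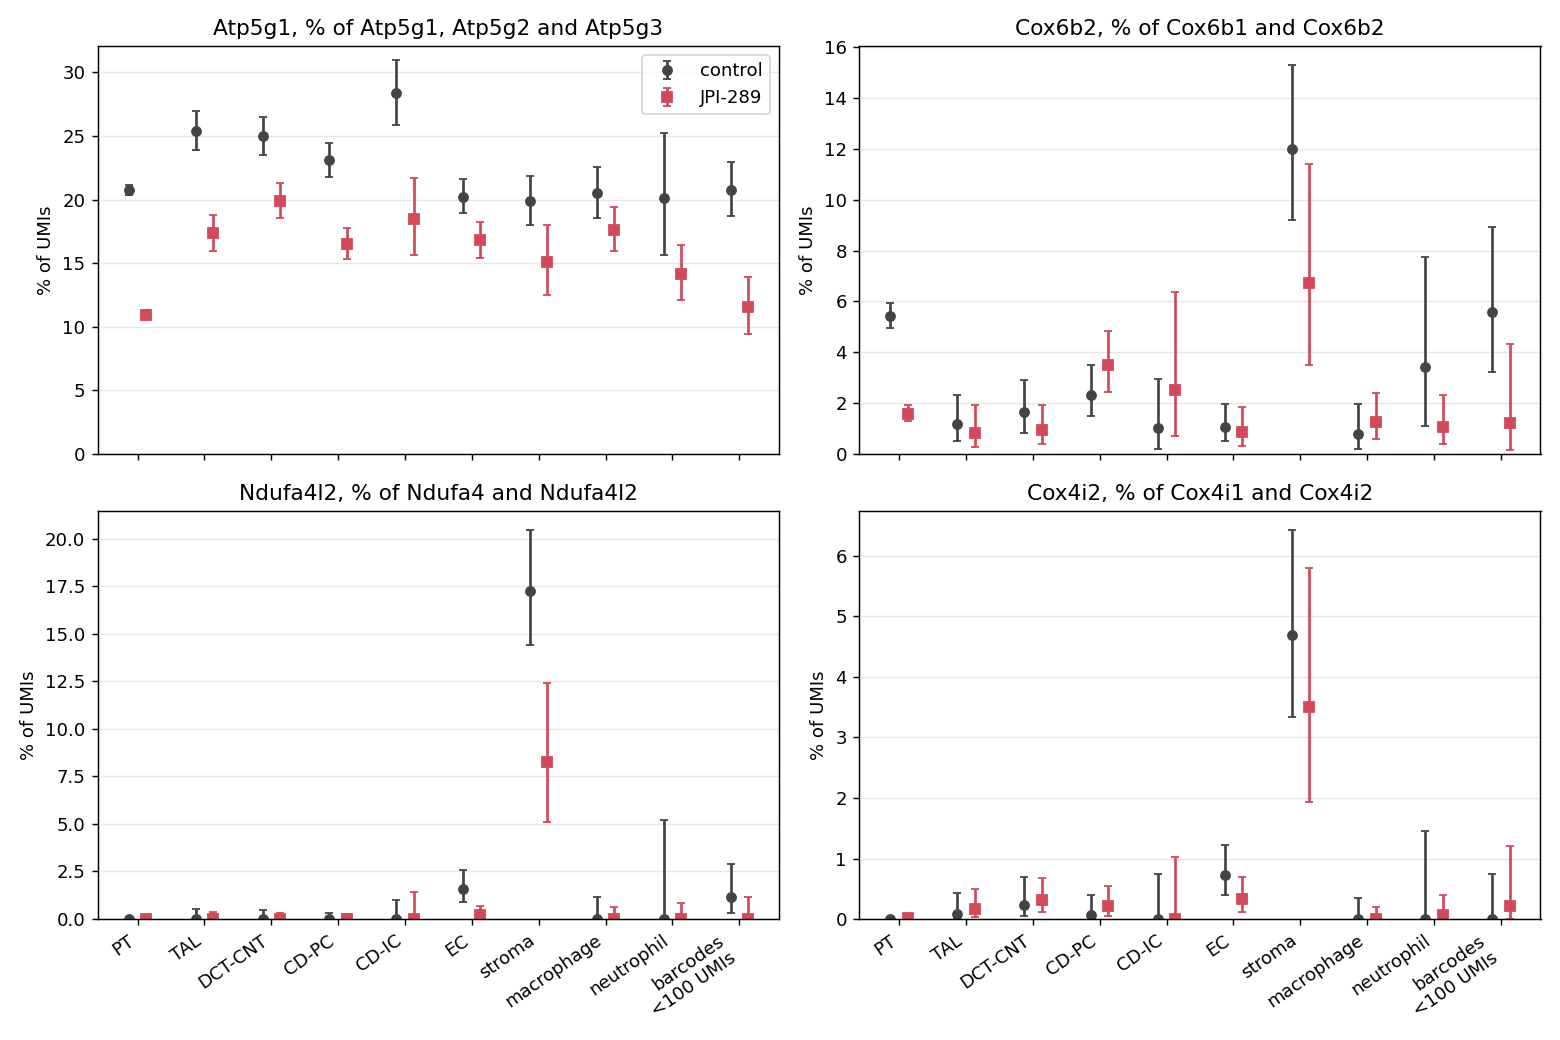
Share of each alternative form among the UMIs of its subunit, in control and JPI-289 libraries by cell class, with exact Clopper-Pearson intervals. The Atp5g1 share is lower in the JPI-289 library in each class, and Ndufa4l2 stands out in stroma-like cells, at 17.3% and 8.23%.

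Forms known from oxygen-poor settings or other tissues took small shares of their subunit in most classes. Ndufa4l2, the low-oxygen form of Ndufa4 (chr10:127514967-127517154), made up 110 of 637 pair UMIs in stroma-like cells of the control, 17.3% (14.4% to 20.4%), and 20 of 243 in the JPI-289 library, 8.23% (5.10% to 12.4%). It took 1.60% and 0.197% in EC-like cells from 16 and 2 UMIs, and had no UMI in either library in TAL-like cells, where a count of 0 allows up to 0.417% and 0.323%. Cox4i2, the other low-oxygen form (chr2:152754173-152765037), took 4.70% and 3.50% of subunit 4 UMIs in stroma-like cells, with overlapping intervals of 3.33% to 6.42% and 1.93% to 5.80%. Cox6b2 took 5.43% of subunit 6b UMIs in control PT-like cells and 1.58% under JPI-289, and 12% and 6.70% in stroma-like cells, where the intervals of 9.19% to 15.3% and 3.51% to 11.4% overlap. Cox7a1 reached 3.91% and 4.14% of subunit 7a in CD-IC-like cells, from 10 and 7 UMIs, and was under 1% in PT-like cells of both libraries.

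Genes that build, feed or regulate the chain were read from lists, in PT-like cells. Assembly factors, which put the complexes together, had 45 of 46 measured, 41 of them lower (median -0.46), with 21 lower and 0 higher by 0.5, where 38.1% of all genes were lower and 22% higher by that much. Among them Coa6, which delivers copper to complex IV, went from 1099 to 331 UMIs (-1.59), and Sdhaf1, which matures Sdhb, from 853 to 362 (-1.10). The median of assembly factors was below 0 in each of the 9 classes, from -0.93 in EC-like cells to -0.46 in PT-like cells. Of the tricarboxylic acid cycle enzymes 12 of 13 were lower (median -0.29), 6 of them by 0.5, with Idh3a at -0.97 and Ogdh at -0.96. Among carriers and channels of the mitochondrial membranes 6 of 11 were lower (median -0.02). The ADP/ATP carriers were the low end, with Slc25a4 from 2318 to 584 UMIs (-1.85) and Slc25a5 from 10433 to 5678 (-0.74), while the channel Vdac3 had 0.56. Mitochondrial ribosomal proteins were split, with 44 of 78 lower in PT-like cells (median -0.06) and 61 of 78 in EC-like cells (median -0.43).

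The transcriptional regulators of mitochondrial genes differed by larger factors than most members. The coactivators Ppargc1a and Ppargc1b went from 288 to 45 UMIs (log2 -2.53) and from 193 to 39 (-2.16) in PT-like cells. The estrogen-related receptors went from 498 to 111 (Esrra, -2.02) and from 251 to 25 (Esrrg, -3.16), and Ppara, which drives fatty acid oxidation, from 999 to 338 (-1.42). The ETS factor subunits Gabpa (126 and 197, 0.78) and Gabpb1 (55 and 151, 1.59) and the coactivator Pprc1 (50 and 82, 0.85) were higher, and Nrf1 had 91 and 89 (0.11). Of the 9 measured, 5 were lower and 3 higher by 0.5, where 38.1% of all genes were lower and 22% higher by that much. Without cluster 14 the ratios were -2.21 for Ppargc1a, -2.67 for Esrrg and 0.64 for Nrf1. In EC-like cells 6 of the regulators were measured. Esrra (51 and 11 UMIs, -1.96) and Ppara (30 and 11, -1.21) were lower there as in PT-like cells, and Gabpa (0.76), Pprc1 (0.48), Gabpb1 (0.45) and Nrf1 (0.40) were higher. With free RNA estimated at 17.2% and 17.8% of EC-like UMIs, the part of tubule RNA in these EC-like values was not tested. Among genes that express mtDNA, Tfam, which packages it, had 301 and 341 UMIs (0.32), the single-strand binding protein Ssbp1 597 and 866 (0.67), the polymerase Polrmt 99 and 41 (-1.12) and the transcript-stabilizing Lrpprc 519 and 239 (-0.98). Over that list 12 of 18 were lower (median -0.36). The fall of Ppargc1a was not seen to that degree in TAL-like (31 and 48 UMIs, 0.29), CD-IC-like (21 and 27, 0.74) or CD-PC-like cells (53 and 67, -0.16). Esrra was lower in TAL-like (40 and 9, -2.43) and CD-PC-like cells (38 and 26, -1.04). Whether regulators and members change together was not tested.

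The low-oxygen list moved in both directions in PT-like cells, with 4 of 10 measured genes lower and a median of 0.34. Pdk4, which blocks entry of pyruvate into the mitochondrion's cycle, went from 1224 to 8423 UMIs (2.92), and in EC-like cells from 28 to 299 (3.60). Free RNA was estimated at 17.2% and 17.8% of EC-like UMIs, and its part in the EC-like value was not tested. Vegfa (557 and 165, -1.61), Bnip3 (1714 and 749, -1.06) and Egln3 (59 and 13, -2.00), targets of hypoxia-inducible factors, were lower. Other targets of the same factors were higher: the glucose transporter Slc2a1 (71 and 145, 1.16), the mitophagy receptor Bnip3l (619 and 1104, 0.97), Higd1a (1708 and 2148, 0.47) and the lactate dehydrogenase subunit Ldha (5777 and 6072, 0.21). Pdk1, a kinase that acts like Pdk4, was lower (47 and 13, -1.68). Hif1a itself had 506 and 650 (0.50).

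Promoter windows were found for 68 of the 85 nuclear members and searched on both strands. CCGGAAG, an ETS site that GABPA binds, stood in 17 of 68 (25%) against 9.93% of all genes with a window. GCATGCGC stood in 10 (14.7%) against 3.05%, and AAGGTCA in 8 (11.8%) against 5.38%. ATGGCGG, a YY1 site whose letters can overlap a start codon, stood in 10 (14.7%) against 4.69%. By complex, 8 of the 10 lay among the 32 complex I members with a window and 0 among the 14 of complex IV. Of the 8 members with an estrogen-related receptor half-site, 4 lay among the 14 of complex V. ACGTG stood in 16 (23.5%) against 21.8%. These counts describe letters in a window and no binding was measured.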

How the data were processed

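For both 10x 5′ libraries the authors deposited unfiltered matrices of raw counts of UMIs, with all barcodes kept, made, per the submitters' processing notes, with Cell Ranger 5.0.1 on mm10. Depth was 38328760 and 35548396 UMIs. Cells were called here by a total-UMI step at 3000 expected cells and then against the profile of barcodes ranked 45000 to 90000 (at least 500 UMIs, 10000 simulations, false discovery rate 0.01), and those over 50% mtDNA UMIs were removed. Clusters used 2000 variable genes without the members, 30 components, 20 neighbours and Leiden resolution 1 (scanpy 1.11.5, Python 3.11.15), with no correction between libraries. Scrublet marked 2 of 8796 cells (0.0227%) and so did not work as a doublet filter here.

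Clusters were named "X-like" from marker lists, with a score of at least 0.75 and 3 detected markers. Clusters led by injury markers joined the PT-like class at a PT score of at least 0.5. Clusters stayed unnamed where their 10 leading genes held more markers of another class, or none of their own at a score under 4.5. The naming rule was set after clusters were seen, and members, gene lists and tests were chosen with earlier results of these data known. UMIs were summed per class and library, divided by the class total and multiplied by 1000000 (CPM). UMIs count molecules, so gene length does not enter. Genes with at least 20 UMIs over both libraries were measured, and 0.5 UMIs were added for log2 ratios of JPI-289 over control. Intervals are exact at 95% (Poisson for levels, binomial for ratios, Clopper-Pearson for shares). A count of 0 allows up to 3 UMIs of the total. Genes were named by rule: the 13 mtDNA members, the 2 nuclear members with most UMIs per complex, the 3 with the lowest and highest ratios among those with at least 100 UMIs in PT-like and EC-like cells, paired isoforms, and listed partner genes. Ndufb10, Ndufs7, Ndufab1 and the other members cited were chosen after their values were seen. Free RNA was estimated per class from barcodes under 100 UMIs. Members that share sequence with pseudogenes may be undercounted. The ratio and interval code was tested on simulated data. The public normal kidneys of the study were not used here.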

Additional observations from a re-analysis of the deposited data

Results flagged for a closer look

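For 7 members the ratio of JPI-289 over control was at least 0.5 in a cell class and -0.5 or lower in another, with both counting intervals clear of no difference. The difference between classes was not tested. mt-Nd3 passed the cuts on the ratio (0.84 in macrophage-like and -0.76 in neutrophil-like cells) but not the condition on the intervals. Neutrophil-like cells were the higher class for 5 of the 7. There 29.6% of all genes were higher by 0.5, and in PT-like cells 38.1% were lower by 0.5. The share of all genes that meet the same rule was not counted, so these members are not shown to stand apart. Cox5b, a zinc-binding subunit of complex IV, had a log2 ratio of 0.64 in neutrophil-like and -0.70 in CD-IC-like cells. Sdhd, an anchor of complex II, had 0.69 and -0.64 in the same classes. The complex I subunits Ndufb6 (0.53 and -0.73) and Ndufb10 (0.51 and -0.99) were higher in neutrophil-like and lower in PT-like cells, and Ndufb7 was higher in neutrophil-like (0.70) and lower in stroma-like cells (-0.53). Ndufa5 had 0.54 in macrophage-like and -1.24 in CD-IC-like cells. mt-Nd1 went the other way in neutrophil-like cells, with -0.90, and had 0.70 in TAL-like cells. Most mtDNA UMIs of neutrophil-like cells were estimated as free RNA.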

How the results depend on the processing

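No paired analysis was possible because each group holds 1 sample, and no test gave a call to lose. In PT-like cells the median of nuclear members (-0.29) was -0.10 once centred on the median of all genes, -0.40 without cluster 14, and 0.14 in clusters with a low injury marker score, which held 13 JPI-289 cells. The summed mtDNA members of PT-like cells (-0.21) gave -0.28 with the total-UMI step of cell calling alone, -0.24 at most 20% mtDNA, -0.33 with no such filter, -0.23 scaled to nuclear genes, -0.016 centred, 0.078 with cells weighted equally, -0.13 with free RNA subtracted, -0.28 without cluster 14, 0.025 and 0.46 in clusters with a low and a high injury marker score (the latter with 49 control cells), and 0.094 with a marker score of 0.75 for injury-led clusters. In EC-like cells the nuclear median (-0.20) was -0.022 centred and -0.11 with free RNA subtracted. The EC-like mtDNA sum (0.04) was 0.056 with the total-UMI step, -0.00918 at 1000 UMIs or more, 0.11 at most 20% mtDNA, 0.15 with no filter, 0.22 centred, -0.096 with equal weight, 0.22 with free RNA subtracted and 0.056 once the 5% most doublet-like cells were dropped. Among the other values, 111 of 1819 alternatives changed the sign, 15 of them for a value at least 0.5 in size. In clusters with a low injury marker score these 15 held Atp5g1 (0.00045), Sdhb (0.046), Sdhd (0.37), Polrmt (1.17), Lrpprc (0.39), Ppargc1a (1.22) and Ppargc1b (0.22), and in those with a high score Ndufa6 (0.015), mt-Nd1 (0.12), Cyc1 (0.46), Cycs (0.21), Gabpa (-1.11) and Pprc1 (-1.15). The mtDNA over nuclear ratio of CD-PC-like cells was -0.047 with equal weight, and the Atp5g1 ratio of neutrophil-like cells 0.56 with free RNA subtracted. Of the 1819, 1348 stayed within the interval of the main value. That interval covers counting error, except for medians, where it covers the spread over members. The nuclear median of neutrophil-like cells (0.01) was 0.50 with free RNA subtracted. At resolution 0.5 no DCT-CNT-like cluster formed, so it gave no value for that class. The settings on cluster 14, on the marker score of 0.75 and on barcodes shared by the libraries were chosen after seeing the data. The cause of these shifts was not tested. Depth limits CD-IC-like cells most, with 45 and 60 cells.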

Other observations

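Classes with few cells had these levels of members, given as values. Lymphocyte-like cells (6 control and 98 JPI-289 cells) had 16065 and 16331 nuclear member CPM and 31911 and 65626 of mtDNA members. Platelet-like cells (14 and 23) had 25339 and 22555 nuclear and 67728 and 144730 mtDNA CPM, the highest mtDNA level of any class in the JPI-289 library. Red blood cell-like cells, which lose their mitochondria as they mature, had the lowest nuclear level, 6537 and 7493 CPM, with 37699 and 38008 of mtDNA members. The barcodes removed for over 50% mtDNA transcripts, 545 in the control and 398 with JPI-289, still held 9839 and 7374 nuclear member CPM, a log2 ratio of -0.42.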
